A study of Mus musculus with 2 samples.

Results

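The genes described here are the sensors of the unfolded protein response, the endoplasmic reticulum (ER) chaperones that those sensors induce, and the machinery of ER-associated degradation. The 31 members were selected by gene symbol, from a list drawn up with earlier results of these data known, out of 17270 genes in a table of normalised read counts. Messenger RNA had been sequenced in bone-marrow-derived macrophages of Ninj1+/+ and Ninj1-/- mice. Ninj1 encodes ninjurin 1, a membrane protein known to join cells to one another and to break the plasma membrane of dying cells. Marrow was taken from mice at an age of 6 weeks, held in culture for 16 hours and then grown into macrophages with M-CSF over 7 days. Cells of both genotypes were then exposed to lipopolysaccharide (500 ng/ml) together with interferon-gamma (20 ng/ml), which gives classically activated macrophages. The knockout allele, the strain background and the sex of the mice were not stated, and unstimulated cells were not analysed here. The stated question was how loss of Ninj1 relates to macrophage activation.

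Proteins that enter the secretory pathway fold in the ER, and unfolded chains occupy BiP, the product of Hspa5. Loss of BiP from the sensors IRE1 (Ern1), PERK (Eif2ak3) and ATF6 (Atf6) switches on the unfolded protein response. IRE1 splices the mRNA of the transcription factor XBP1, ATF6 is cut by the Golgi proteases encoded by Mbtps1 and Mbtps2, and both factors then raise transcription of chaperones and of degradation genes. Proteins that fail to fold are drawn back into the cytosol by ER-associated degradation and destroyed by the proteasome. Macrophages activated through Toll-like receptors are known to engage the IRE1 and XBP1 arm while they make cytokines.

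The table held 2 columns a genotype, although only 1 sample of each had been registered, with 46798381 to 62684262 reads assigned to genes in a column. The sources do not say if a genotype's columns were different animals, different cultures or repeat libraries of 1 culture. All p-values therefore measure column-to-column spread alone, and that spread may be technical. Ninj1 stood at 28850 and 31158 normalised counts in the wild-type columns and at 3519 and 4086 in the knockout columns, 12.7% of the wild-type mean (log2 ratio -2.98, limma adjusted p = 1.8e-11). All 10 macrophage markers were detected, with a summed level of 976640 to 1065415 normalised counts in a column. Of the 10, 4 were called lower in the knockout by limma, Itgam, Mertk and Cd33 among them, and none was called higher. The shares over all genes were 1.24% lower and 1.67% higher. Plasma cells have a strong unfolded protein response. Of 10 B or plasma cell markers, 2 (Mzb1 and Tnfrsf17) were at 0 in all 4 columns, and 3 others passed the read minimum. The T-cell genes Cd3d and Cd8a and the dendritic cell genes Cd209a and Siglech were also at 0 in all 4 columns. The summed level of 8 dendritic cell markers was 6001 and 5773 in wild type and 8429 and 7924 in the knockout, and that of 12 stromal markers was 868 and 986 against 543 and 456. Among the dendritic cell markers Xcr1 was called higher, and among the stromal markers Col1a1 and Col1a2 were called lower. The summed levels were 78.6 to 122 for 5 neutrophil markers, 29 to 59.4 for 6 T or NK cell markers, 106 to 175 for 3 mast cell or basophil markers and 6.04 to 29.2 for 4 erythroid markers. The 10 B or plasma cell markers summed to 3959 to 4472. Cd79a, Cd79b, Ms4a1 and Jchain were among those under the read minimum, and the 3 that passed it were not called. The part of these cell types in the results below was not tested.

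In the knockout columns 6 of the 31 members rose and none fell. The 6 were the chaperone gene Hspa5, the BiP cofactor genes Dnajb9, Dnajb11 and Dnajc3, the BiP-binding secreted factor Manf and the retrotranslocation gene Derl2. Their increases lay between 1.25-fold (Derl2) and 1.42-fold (Dnajb9). The sensor genes Atf6, Ern1 and Eif2ak3 did not pass the test. These calls came from limma on log2(normalised count + 1) across the 12872 genes that reached 20 reads in any column, adjusted by the Benjamini-Hochberg method, with calls at an adjusted p below 0.05. All 31 members passed the read minimum. The share of all genes called higher was 1.67% and the share called lower was 1.24%. Among the members 19.4% were called higher, a share to be read with the fact that the list was drawn up when earlier results of these data were known. In bulk samples, more RNA per cell and more cells of an expressing type cannot be told apart. edgeR called 7 members higher (background 1.58%) and DESeq2 called 9 (background 4.07%). Neither called a member lower, against 1.36% of all genes by edgeR and 2.32% by DESeq2. The edgeR calls were the 6 together with Hsp90b1, and DESeq2 added Sdf2l1 and Ube2j1. The number of calls changed when a column was left out, for the members and for all genes. Leaving out wild-type column 1, limma called 0 members and 18 genes in all higher, and leaving out knockout column 1 it called 0 and 14. It called 9 members and 355 genes higher without wild-type column 2, and 2 members, Dnajb9 and Manf, and 59 genes without knockout column 2. The log2 ratio of Dnajb9 stayed between 0.46 and 0.54 in these fits and that of Derl2 between 0.29 and 0.36. The median log2 ratio of the members was 0.15, against 0.00 for all genes tested, and it was 0.13 to 0.18 with any 1 column left out.

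Among 7 sensors and regulators none was called and the median log2 ratio was -0.03. Among 7 chaperones and folding factors 2 were called higher and the median was 0.37. Among 4 J proteins 3 were called higher and the median was 0.33. Among 13 degradation genes 1 was called higher and the median was 0.12. Over all genes 1.67% were called higher and 1.24% lower. The roles also differed in base composition, which the ratios of all genes followed, as given below. Median GC content was 44% for the J proteins, 49.3% for the degradation genes, 50.6% for the sensors and regulators and 52.3% for the chaperones. Differences between roles were not tested. For 20 members (64.5%) both knockout columns lay above both wild-type columns, a pattern seen in 25.5% of all genes tested, and for 1 member (Mbtps1) both lay below, a pattern seen in 25.6%. The 20 comprised 6 of 7 chaperones, 3 of 4 J proteins, 10 of 13 degradation genes and 1 of 7 sensors and regulators. At an unadjusted limma p below 0.05, 14 members were higher (background 10.3%) and 1, Ern1, was lower (background 9.45%). The columns of a genotype were not equal: 23 of 31 members were highest in knockout column 1 and 19 were lowest in wild-type column 1, against 27.9% and 29.9% of all genes. Knockout column 1 also had the most reads assigned to genes (62684262) and wild-type column 1 the fewest (46798381). The part of read depth in these ratios was not tested. With 2 columns against 2, an exact permutation test of a single gene cannot go below p = 0.333.

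**Figure D1:**
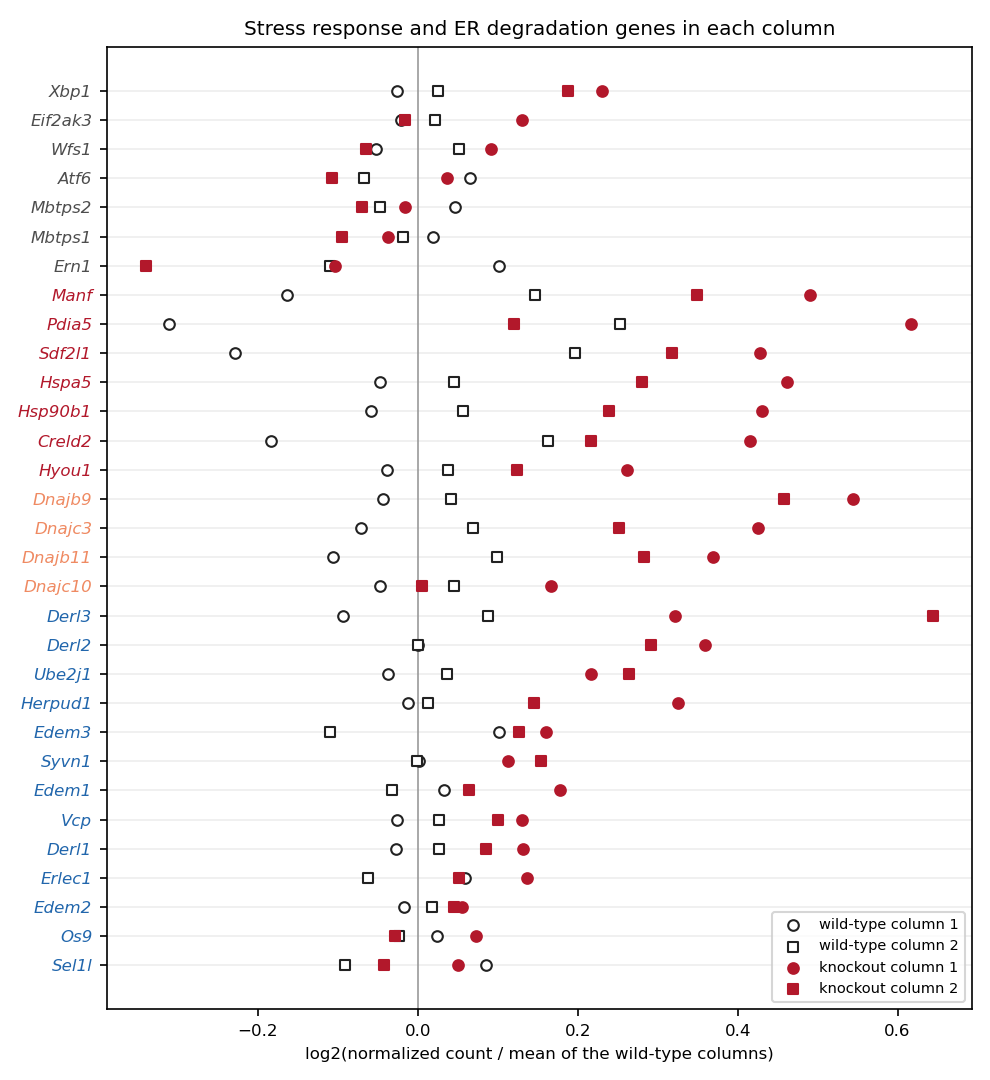
Normalised count of each of the 31 members in each column, as log2 of the ratio to the mean of the wild-type columns (horizontal axis), for wild type (open) and knockout (filled), with column 1 as circles and column 2 as squares. Gene names are coloured by role as in the plot of ratios. Knockout column 1 lies farthest right for 23 members.

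**Figure D2:**
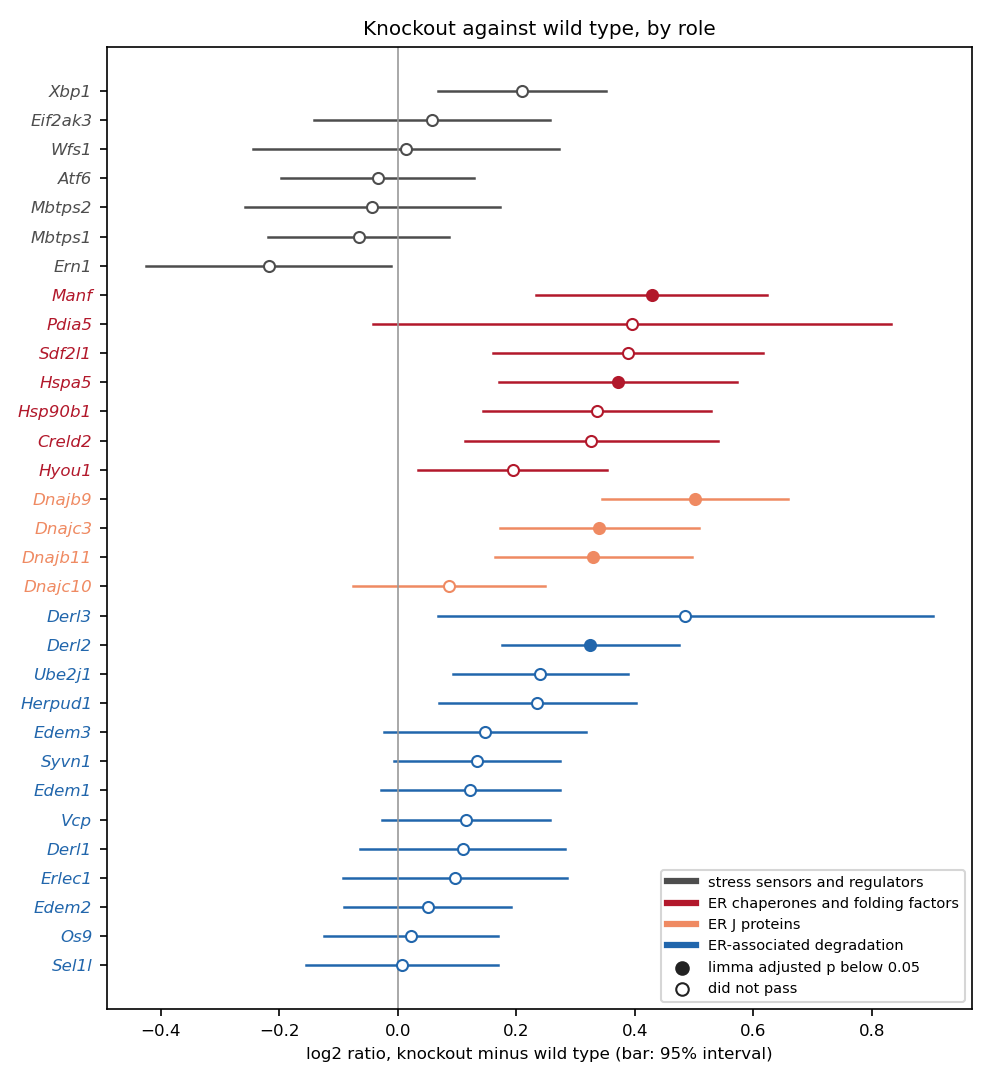
Log2 ratio of knockout to wild type for each member, with its 95% interval from limma as a bar and filled points for an adjusted p below 0.05. The 6 filled points are chaperone, J protein and degradation genes, and the sensors and regulators at the top have open points.

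Hspa5 (Entrez 14828, chromosome 2) encodes BiP, the Hsp70 of the ER lumen. Its level was 179504 and 191367 normalised counts in wild type and 255382 and 225147 in the knockout. Both knockout columns lay above both wild-type columns, and the log2 ratio of 0.37 (SE 0.09) passed narrowly by limma (adjusted p = 0.0486). Hspa5 lost its call with a pseudocount of 0.1 (adjusted p = 0.053), with TMM scaling (adjusted p = 0.0508), without a read minimum (adjusted p = 0.0806) and with the GC and length trend of each column removed (adjusted p = 0.0784), all by limma. Over all settings run its log2 ratio ranged from 0.28 to 0.46.

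Hsp90b1 encodes GRP94, the Hsp90 of the ER. It stood at 118585 and 128478 normalised counts in wild type and at 166519 and 145854 in the knockout, again with no overlap. Its log2 ratio of 0.34 (SE 0.09) missed the limma threshold (adjusted p = 0.0596) and passed with edgeR (adjusted p = 0.0431) and DESeq2 (adjusted p = 0.00236). Hyou1, a nucleotide exchange factor that recharges BiP, gave 41691 and 43960 against 51324 and 46686 normalised counts. The columns did not overlap, and the log2 ratio was 0.19 (limma adjusted p = 0.169).

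Manf (chromosome 9) encodes a secreted protein that is retained in the ER by BiP and released under stress. It went from 13583 and 16836 to 21372 and 19369 normalised counts. The log2 ratio was 0.43 (SE 0.09, limma adjusted p = 0.0276), a 1.35-fold increase, and it also passed once each column's GC and length trend was taken out (0.40, adjusted p = 0.0305). Without wild-type column 1 the log2 ratio of Manf was 0.27 (limma adjusted p = 0.183), and without knockout column 1 it was 0.36 (adjusted p = 0.293). Sdf2l1, a partner of the J protein ERdj3, missed the limma threshold (log2 ratio 0.39, adjusted p = 0.0664) and passed with DESeq2 (0.37, adjusted p = 0.0265). Its wild-type columns stood apart from each other, at 6150 and 8261 normalised counts, and the knockout columns lay at 9691 and 8985. Creld2, a stress-induced folding factor, showed the same layout, with 8464 and 10759 in wild type and 12821 and 11165 in the knockout (log2 ratio 0.33, limma adjusted p = 0.0945). Both ratios depended on which wild-type column was kept. Without wild-type column 1 the log2 ratios of Sdf2l1 and Creld2 were 0.18 and 0.15 (limma adjusted p = 0.339 and 0.464), and without wild-type column 2 they were 0.60 and 0.50 (adjusted p = 0.00722 and 0.0185). Pdia5, a disulfide isomerase of low abundance, held 287 and 424 against 546 and 387 normalised counts. Its columns overlapped and it did not pass (log2 ratio 0.40, limma adjusted p = 0.302).

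J proteins deliver clients to BiP and stimulate its ATPase. Dnajb9 (ERdj4, chromosome 12), which also holds IRE1 inactive, had the smallest p among the members. Its level was 4350 and 4615 normalised counts in wild type and 6535 and 6156 in the knockout. The gap between genotypes was several times the gap between columns of a genotype, and the log2 ratio was 0.50 (SE 0.07, limma adjusted p = 0.00537). It was 0.36 with the GC and length trend removed (adjusted p = 0.0216). Leaving out wild-type column 1 gave 0.46 and a limma adjusted p of 0.0579, and leaving out knockout column 1 gave 0.46 and 0.0959. Dnajc3 (p58IPK, chromosome 14), which also restrains PERK, went from 8454 and 9316 to 11927 and 10581 normalised counts (log2 ratio 0.34, SE 0.08, limma adjusted p = 0.036). Dnajb11 (ERdj3, chromosome 16), which binds unfolded chains, went from 16493 and 19018 to 22940 and 21592 (log2 ratio 0.33, SE 0.08, limma adjusted p = 0.0396). Neither gene's genotypes overlapped. Dnajc3 and Dnajb11 lost their calls without a read minimum (limma adjusted p = 0.0549 and 0.0598), and Dnajc3 also with the GC and length trend removed (0.0631). Dnajc10 (ERdj5), a reductase that opens disulfide bonds before degradation, overlapped between genotypes at 7612 and 8118 against 8829 and 7892 normalised counts (log2 ratio 0.09, limma adjusted p = 0.563).

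Among the 3 stress sensors, the transcript level of Ern1 was the lowest in the knockout relative to wild type. Ern1, which encodes IRE1 alpha, gave 3692 and 3189 normalised counts in wild type and 3201 and 2718 in the knockout. Wild-type column 2 lay just below knockout column 1, so the groups overlapped, and the log2 ratio of -0.22 (95% interval -0.43 to -0.01) did not pass (limma adjusted p = 0.228). Atf6 gave 9412 and 8585 against 9224 and 8352 (log2 ratio -0.03, 95% interval -0.20 to 0.13, limma adjusted p = 0.845). Eif2ak3, which encodes PERK, gave 1657 and 1707 against 1841 and 1664 (log2 ratio 0.06, 95% interval -0.14 to 0.26, limma adjusted p = 0.777). Atf6 and Eif2ak3 thus varied as much between columns of a genotype as between genotypes. The ATF6-cutting proteases Mbtps1 and Mbtps2 had log2 ratios of -0.07 and -0.04, and Wfs1, an ER membrane protein that restrains ATF6 and is mutated in Wolfram syndrome, had 0.01, with limma adjusted p = 0.647, 0.853 and 0.967. Wfs1 was the lowest of the regulators in abundance, at 719 to 801 normalised counts in the 4 columns.

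Xbp1 was the regulator with the highest ratio. Its total transcript, spliced and unspliced together, stood at 12422 and 12877 normalised counts in wild type and 14838 and 14413 in the knockout. The genotypes were apart and the columns of each were close, and the log2 ratio of 0.21 (SE 0.07) did not pass over all genes (limma adjusted p = 0.104). Gene-level counts do not show how much of the transcript had been spliced by IRE1.

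Degradation genes mostly lay slightly higher in the knockout without passing. All 13 had a log2 ratio above 0, from 0.01 to 0.48, where 49.3% of all genes did. Of the 13, 1 was called higher (7.69%, against 1.67% of all genes). The smallest ratios were not stable in sign. Those of Sel1l and Os9 turned negative in some fits with 1 column left out, and that of Erlec1 with the GC and length trend removed. Derl2 (chromosome 11), a derlin that helps to move proteins out of the ER membrane, stood at 5564 normalised counts in both wild-type columns and at 7135 and 6809 in the knockout. Its log2 ratio was 0.32 (SE 0.07, limma adjusted p = 0.0287). With the GC and length trend removed it was 0.28 (adjusted p = 0.0434). Its paralogue Derl1 gave 2499 and 2595 against 2790 and 2703 (log2 ratio 0.11, limma adjusted p = 0.488). Derl3, the derlin most tied to secretory cells, was the scarcest member, at 195 and 221 against 260 and 325 normalised counts. Its log2 ratio of 0.48 was above that of Derl2, but the 95% interval ran from 0.07 to 0.90 and it did not pass (limma adjusted p = 0.187). DESeq2 gave no adjusted p to Derl3 or Pdia5.

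Ube2j1, the ubiquitin-conjugating enzyme anchored in the ER membrane, held 7072 and 7445 normalised counts in wild type and 8432 and 8713 in the knockout. Its log2 ratio of 0.24 missed the limma threshold (adjusted p = 0.0776) and passed with DESeq2 (adjusted p = 0.0466). Herpud1, a scaffold of the HRD1 ligase complex, held 5085 and 5174 against 6426 and 5674 (log2 ratio 0.24, limma adjusted p = 0.115). Both genes had genotypes that did not overlap. The ligase HRD1 itself, encoded by Syvn1, gave 14872 and 14846 against 16070 and 16536 (log2 ratio 0.13, limma adjusted p = 0.277). Its adaptor Sel1l differed less between genotypes than between columns, at 24355 and 21544 against 23769 and 22287 normalised counts (log2 ratio 0.01, 95% interval -0.15 to 0.17). The lectins that hand glycoproteins to this complex gave log2 ratios of 0.02 for Os9 and 0.10 for Erlec1. The mannose-trimming genes Edem1, Edem2 and Edem3 gave 0.12, 0.05 and 0.15. Vcp, the ATPase that pulls proteins into the cytosol, gave 0.12. The limma adjusted p of these 6 genes ranged from 0.33 (Edem3) to 0.893 (Os9).

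Levels of the members, compared per length, spanned a wide range. Hspa5 led with 50500 normalised counts per kilobase of its longest annotated transcript in wild type, and Hsp90b1 followed with 38300. Hyou1 came next with 8700. The scarcest were Wfs1 (199), Pdia5 (197) and Derl3 (157). The sensors stood low, with 1240 for Atf6, 495 for Ern1 and 373 for Eif2ak3 in wild type, while Xbp1 stood at 5940. Hspa5 and Hsp90b1 together made up 49.7% of the summed level per kilobase of the 31 members in each wild-type column, and 53% and 51.5% in the knockout columns. Reads of the 31 genes were 0.772% and 0.809% of all reads in wild type and 0.965% and 0.88% in the knockout. For the 7 sensors and regulators that share was 0.0457% and 0.0442% against 0.0461% and 0.0436%.

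**Figure D3:**
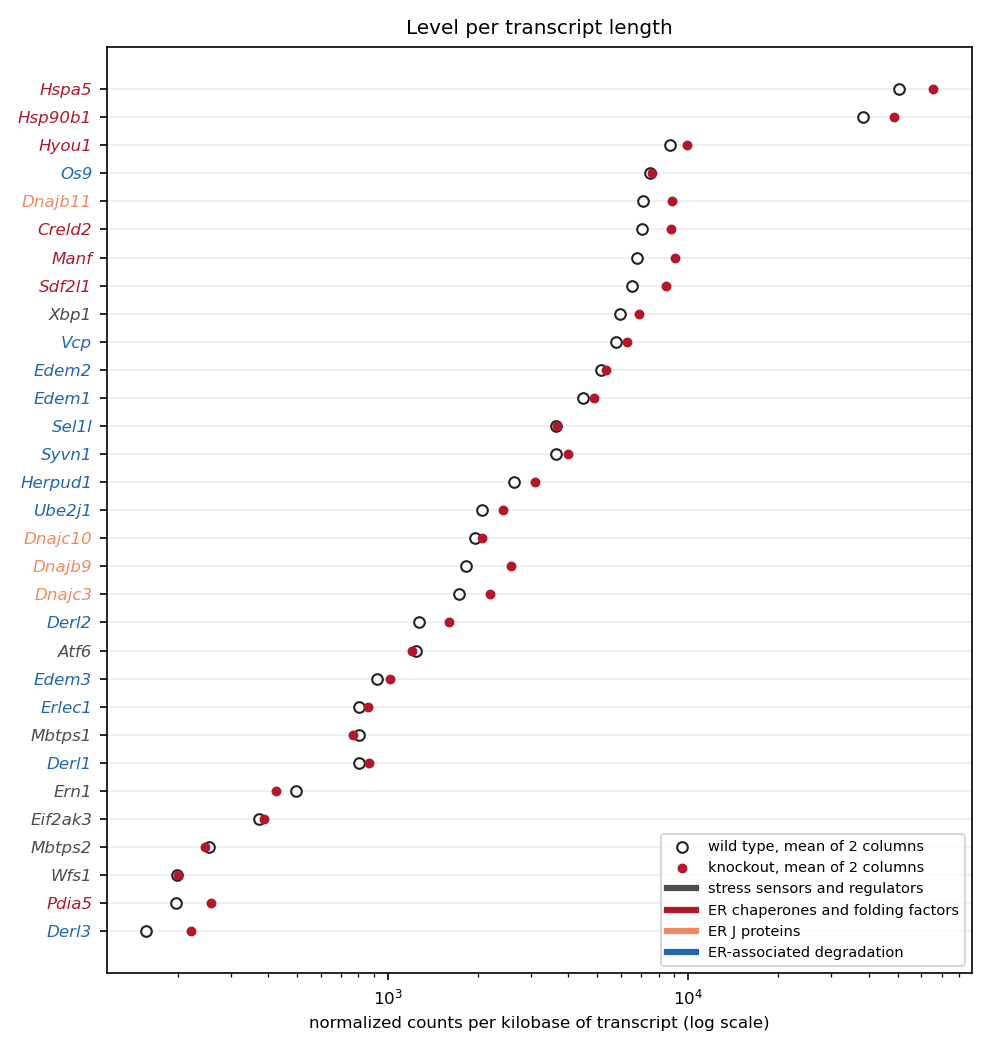
Mean level of each member per kilobase of transcript on a log scale, for wild type (open) and knockout (filled), ordered by the wild-type level, with names coloured by role. Hspa5 and Hsp90b1 stand apart at the top, and the sensors Atf6, Ern1 and Eif2ak3 lie in the lower part.

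Promoter sequence is given as a description. The list holds known targets of ATF6 and XBP1, on which such elements were first defined, so a high share of them in the members is no independent result. ATF6 and XBP1 are known to act through the ER stress element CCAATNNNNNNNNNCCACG and through ER stress element II, which is ATTGG and CCACG with 1 base between them, where N is any base. Both were searched on both strands from 250 bases before to 50 bases after each gene start in RefSeq (GRCm38.p6), together with the unfolded protein response element TGACGTGG and its core ACGTG, which lies within TGACGTGG. Of the 31 members 26 had a promoter there, and Atf6, Manf, Hyou1, Derl1 and Erlec1 had none. The ER stress element was found in 6 of the 26 (23.1%) and in 39 of 32851 promoters in all (0.119%). Element II was found in 2 (7.69%, against 0.0365% of all promoters), the unfolded protein response element in 2 (7.69%, against 0.676%) and the core in 11 (42.3%, against 19.6%). The 250 bases before the start of 4 members are shown because Hspa5 and Dnajc3 were called with the element, Hsp90b1 holds it 2 times, and Herpud1 holds element II. The fixed letters of each element are in capitals, 5′ to 3′ on the gene's strand.

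Hspa5, chr2:34771840-34772089, plus strand: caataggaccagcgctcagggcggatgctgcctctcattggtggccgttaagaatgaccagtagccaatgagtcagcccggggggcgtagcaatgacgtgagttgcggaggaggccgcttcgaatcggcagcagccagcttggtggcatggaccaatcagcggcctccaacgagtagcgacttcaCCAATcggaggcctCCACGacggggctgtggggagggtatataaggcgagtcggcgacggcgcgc
Hsp90b1, chr10:86705445-86705694, minus strand: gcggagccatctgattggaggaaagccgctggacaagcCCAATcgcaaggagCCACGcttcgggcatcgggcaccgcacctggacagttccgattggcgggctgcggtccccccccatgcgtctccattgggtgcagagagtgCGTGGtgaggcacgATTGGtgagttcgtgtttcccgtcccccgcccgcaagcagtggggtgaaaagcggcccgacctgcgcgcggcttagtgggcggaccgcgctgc
Dnajc3, chr14:118937682-118937931, plus strand: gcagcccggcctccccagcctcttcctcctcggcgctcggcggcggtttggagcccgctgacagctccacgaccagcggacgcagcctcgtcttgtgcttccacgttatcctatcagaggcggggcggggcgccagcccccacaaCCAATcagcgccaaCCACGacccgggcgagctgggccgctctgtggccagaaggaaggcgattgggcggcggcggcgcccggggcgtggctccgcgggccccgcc
Herpud1, chr8:94386179-94386428, plus strand: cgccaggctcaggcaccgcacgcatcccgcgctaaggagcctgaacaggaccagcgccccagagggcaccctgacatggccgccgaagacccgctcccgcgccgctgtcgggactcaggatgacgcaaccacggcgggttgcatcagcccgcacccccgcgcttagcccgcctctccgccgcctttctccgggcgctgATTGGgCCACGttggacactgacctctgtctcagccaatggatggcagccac

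The other matches are given as the element alone, because its spacing and half-sites are what the search fixed. CGTGG and ATTGG in an element on the minus strand are the reverse complements of CCACG and CCAAT.

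Creld2, bases -126 to -108 from the gene start, minus strand: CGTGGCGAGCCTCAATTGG
Syvn1, bases -44 to -26, plus strand: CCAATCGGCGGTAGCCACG
Derl3, bases -156 to -138, minus strand: CGTGGGACTTCCCCATTGG
Dnajb11, element II at bases 8 to 18 after the start, plus strand: ATTGGCCCACG

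All 8 members with an element of either kind had knockout columns above wild-type columns, a pattern seen in 64.5% of the 31 members and 25.5% of all genes tested. Among genes outside the list that passed the read minimum, it held for 4 of 10 with the ER stress element and 0 of 6 with element II. Of the 8, 3 (Hspa5, Dnajc3 and Dnajb11) were called higher by limma, against 1.67% of all genes. The log2 ratios of the 8 ran from 0.13 to 0.48 with a median of 0.33. Of the 18 members with a promoter and neither element, 9 had knockout columns above wild-type columns and 2 were called. Those 2 were Dnajb9 and Derl2, and the median of the 18 was 0.10. Of the 5 members without a promoter sequence, 3 had knockout columns above wild-type columns. Among these 5, 1 (Manf) was called, and their median was 0.11. A match is a description of the letters and no evidence of binding, and the difference between these groups was not tested. The unfolded protein response element lay before Vcp and Ube2j1, neither of them called by limma. Dnajb9 held the core on both strands at bases -107 to -102.

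**Figure D4:**
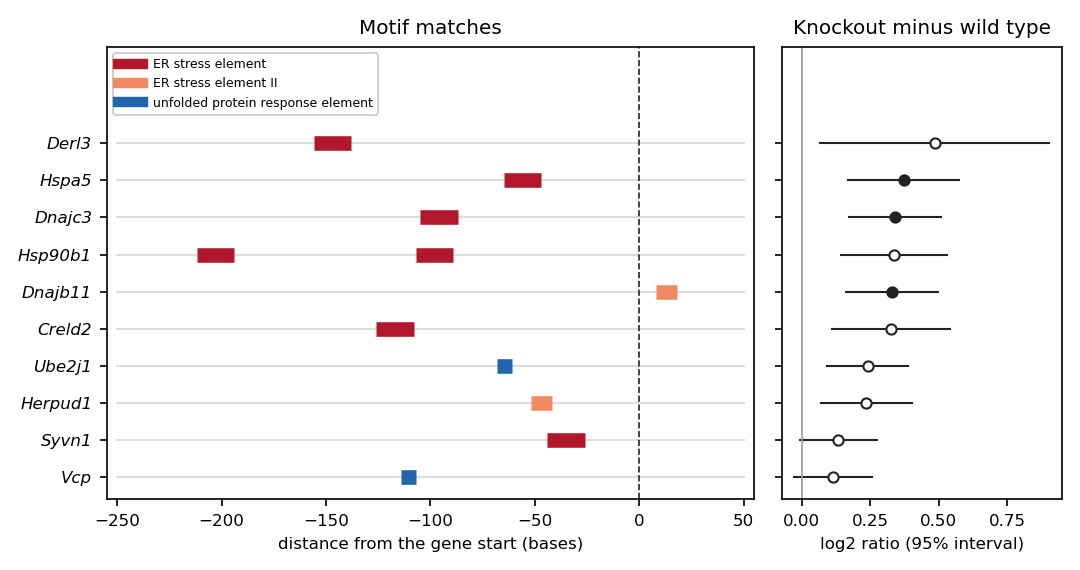
Positions of matches to the ER stress element, element II and the unfolded protein response element in the 10 members that hold one of these 3 (matches to the core alone are not drawn), as distance from the gene start in bases (left), beside the log2 ratio of knockout to wild type with its 95% interval (right, filled where limma called the gene). All 10 ratios lie above 0, and the element of Dnajb11 is the match after the gene start.

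Other genes of the same pathways were read from fixed lists in the same fit, which called 1.67% of all genes higher and 1.24% lower. Of 12 genes of the PERK and ATF4 branch, Eif2s1, the translation factor that PERK phosphorylates, rose and the stress sestrin Sesn2 fell, and 10 did not pass. Eif2s1 held 8123 and 8541 against 10758 and 10021 normalised counts (log2 ratio 0.32, limma adjusted p = 0.0312), and Sesn2 held 4112 and 3445 against 2542 and 2873 (-0.48, adjusted p = 0.0205). The largest ratios that missed the threshold there were those of the ATF4 target Chac1 (-0.36, limma adjusted p = 0.102) and the stress protein gene Nupr1 (-0.27, adjusted p = 0.102). The list's median was -0.02. With the GC and length trend removed, neither Eif2s1 nor Sesn2 was called.

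Of 24 genes of the calnexin cycle and disulfide exchange, 4 rose (16.7%, against 1.67% of all genes) and none fell. The list's median log2 ratio was 0.13. The 4 were Pdia3, an isomerase that works with calnexin (0.36, limma adjusted p = 0.0371), Pdia4 (0.33, adjusted p = 0.0443), the thiol retention factor Erp44 (0.35, adjusted p = 0.0335) and the cyclophilin Ppib (0.35, adjusted p = 0.0335). Uggt2 had the largest ratio of that list (0.81) at 37.3 and 63.6 against 88.3 and 84.6 normalised counts and did not pass (limma adjusted p = 0.24). Of 25 signal peptide, translocon and glycosylation genes, Sec61b (0.40, limma adjusted p = 0.0293), Spcs2 (0.36, adjusted p = 0.0349) and Ssr1 (0.31, adjusted p = 0.0404) rose and none fell. Sec61g (0.33) did not pass (limma adjusted p = 0.275). Of the 25, 24 had a ratio above 0, where 49.3% of all genes did. Their median was 0.19, and it was 0.15 with the GC and length trend removed, where limma called 3 of them higher. The median GC content of the 25 was 46.8%, against 49.6% for all genes. edgeR called 3 genes of the calnexin list higher, without Pdia4 (adjusted p = 0.0546), and DESeq2 called 7. After removal of each column's trend with GC and length, limma called Ppib of that list (adjusted p = 0.0283) and no longer Pdia3, Pdia4 or Erp44 (adjusted p = 0.0601, 0.0732 and 0.135). In the translocon list edgeR called 3 genes higher and DESeq2 called 6. Without wild-type column 1, knockout column 1 or knockout column 2, limma called 0 of both lists. Without wild-type column 2 it called 6 of each.

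Of 41 other degradation genes 1 rose (2.44%, against 1.67% of all genes). It was Selenok, a selenoprotein of the ER membrane, with 6749 and 7691 against 9626 and 9328 normalised counts (log2 ratio 0.40, limma adjusted p = 0.0179). The selenoprotein gene Selenos missed the limma threshold (0.42, adjusted p = 0.0845) and passed with DESeq2 (adjusted p = 0.046). Yod1 (0.51) and Sel1l3 (-0.43) had larger ratios and did not pass, with limma adjusted p = 0.119 and 0.166. The median of that list was 0.01. Of 14 genes of the ATF6 family and the partners of IRE1, the phosphatase gene Ptpn1 fell (17069 and 16601 against 12480 and 14194 normalised counts, log2 ratio -0.34, limma adjusted p = 0.0295), and 13 did not pass. Ptpn1 was no longer called by limma with the GC and length trend removed (-0.25, adjusted p = 0.0824). Creb3l2 (0.20), Creb3l4 (-0.33) and the exchange factor Sil1 (-0.16) were the next largest. Of 3 kept transcripts that IRE1 is known to cut, Hgsnat fell (log2 ratio -0.27, limma adjusted p = 0.0459) and was not called by edgeR (adjusted p = 0.0526), while Bloc1s1 (-0.01) and Pmp22 (-0.13) did not pass. The single calls of Eif2s1, Sesn2, Ptpn1, Selenok and Hgsnat ended when either column numbered 1 was left out, those of Eif2s1 and Hgsnat also without knockout column 2, and Hgsnat without wild-type column 2.

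Ratios across all genes followed base composition, with a median log2 ratio of 0.11 in the most GC-poor of 8 equal bins and -0.11 in the most GC-rich. The members' median GC content was 50.2%, and that of all genes was 49.6%. Of the 6 called members, 4 were poorer in GC, with 40.6% for Dnajb9, 42.9% for Derl2, 43.2% for Dnajc3 and 45.6% for Hspa5, and Dnajb11 and Manf had 50.5% and 51%. With each column's GC and length trend removed the members' median ratio was 0.19, and Dnajb9, Manf, Dnajb11 and Derl2 were called by limma.

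**Figure D5:**
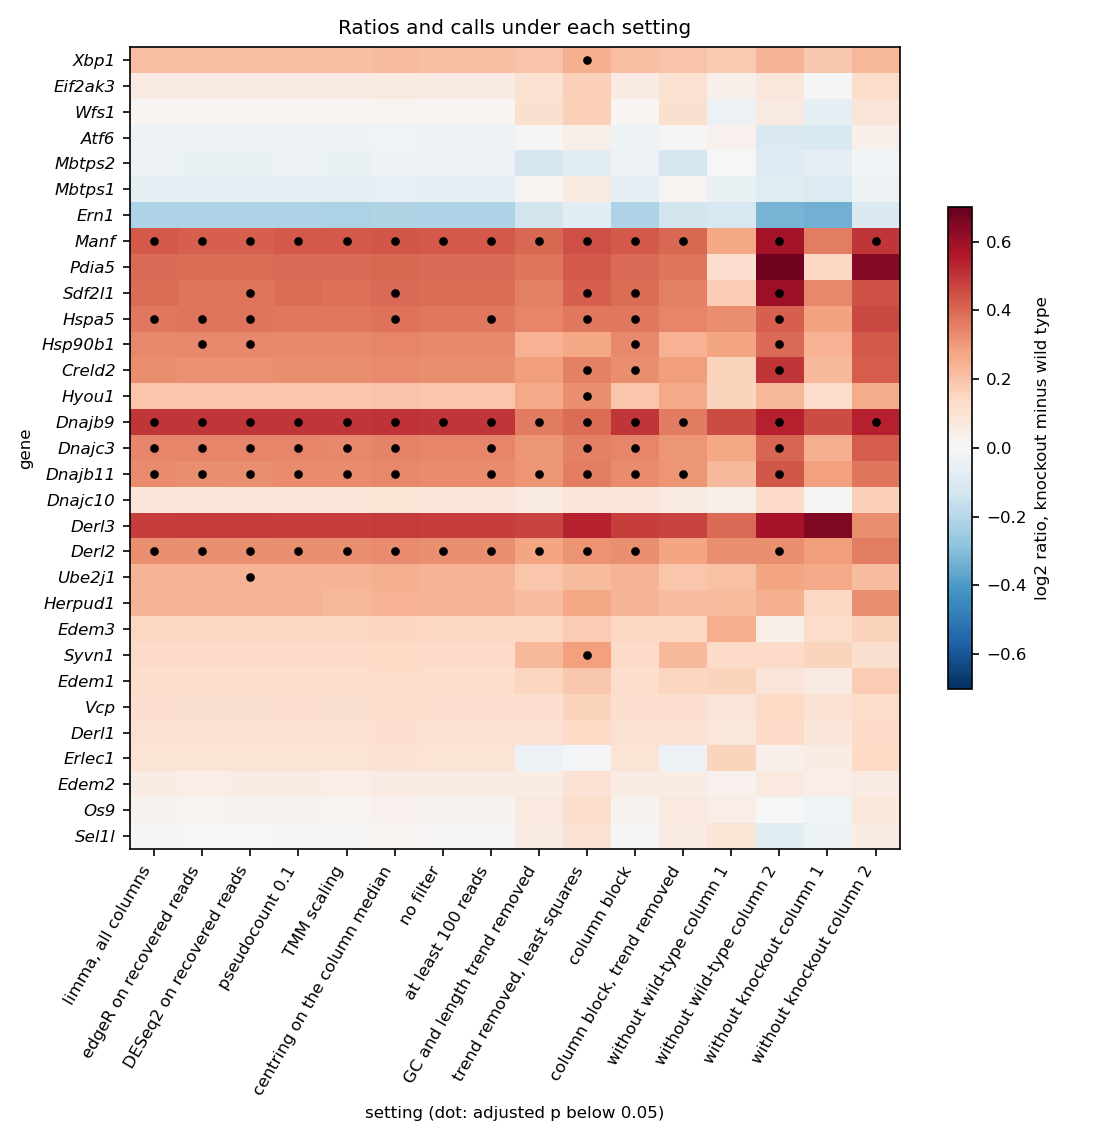
Log2 ratio of each member (rows) under each setting (columns), as colour, with a dot where the adjusted p was below 0.05. Dots are absent in the columns that leave out wild-type column 1 or knockout column 1, while the colours of Dnajb9, Manf, Hspa5, Dnajc3, Dnajb11 and Derl2 stay on the higher side in every setting.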

How the data were processed

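Libraries were made with a directional mRNA kit, per the labels' protocols. The authors deposited a normalized signal for each gene, read here as counts scaled by a single factor in each column. The values are the source of that reading, since 100% were whole multiples of a column's step within 0.01 reads, and 1 read was worth 1.26 to 1.62 normalised counts. Per the submitters' processing notes mm10 and StringTie were used, without stated roles. No source used here names the aligner, the counter, the strand setting or the normalizing tool. The labels give conflicting M-CSF doses, so none is stated. A column name lacking KO was read as wild type. The table's 17271 rows include 1 with no gene name, which was dropped and held 0.0272% to 0.0366% of a column. Of low counts 71.9% to 74.6% were even, so mates may have been counted separately.

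limma 3.58.1 with an intensity trend was fitted on log2(normalised count + 1), a scale that understates changes of low genes, with 2 residual and 12.2 prior degrees of freedom. edgeR 4.0.16 and DESeq2 1.42.0 were run on the recovered reads. Transcript length and GC content, from the longest GENCODE M21 transcript (GRCm38, the build of mm10) by Entrez identifier, were found for 88.5% of genes and all members. The trend alternative used a robust local fit. The fit was tested on simulated data with independent columns and no GC trend, so that test does not measure how reliable the calls here are. Some marker genes are not reported here by name. Members, lists and tests were chosen with earlier results of these data known. The naming rule took members called by any tool, the sensors, Xbp1 and the largest uncalled ratios, and in other lists the called genes and the 4 largest ratios. Fits ran in R 4.3.3, and summaries in Python 3.11.15 with pandas 2.3.3 and scipy 1.17.1. Intervals cover the spread between columns, not between animals.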

Additional observations from a re-analysis of the deposited data

How the results depend on the processing

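The count of members called higher, 6 by limma, was 5 with a pseudocount of 0.1 or TMM scaling, 7 by edgeR or with each column centred on its median, 9 by DESeq2, 6 with at least 100 reads, 3 without a filter and 4 once the GC and length trend was removed. It was 11 when that trend was removed by least squares, a setting chosen after seeing the data. Leaving out 1 column gave 0 to 9. No member was called lower under any setting run. The members' median of 0.15 was 0.19 with the trend removed and 0.22 by least squares. Over all genes 215 were called higher and 160 lower. The counts were 341 higher by DESeq2, 122 and 100 without a filter, 100 and 82 with the trend removed, 86 lower by least squares, and 14 to 355 higher and 3 to 265 lower with 1 column left out.

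With the column number as a replicate block, 9 members and 322 genes were called higher and 280 genes lower, and with that trend taken out too 3 members, 93 genes higher and 95 lower, the members' median being 0.19. Column 1 minus column 2 correlated between genotypes at -0.03, so the numbers are not taken to pair columns.

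In the other lists, Eif2s1, Sesn2 and Ptpn1 left 0 calls in their lists under each removal of the trend. The other degradation genes had 2 called by DESeq2 or with the block and 0 with block and trend removal. The calnexin list had 7 by DESeq2, 2 without a filter and 1 with the trend removed, with or without the block. The translocon list had 6 by DESeq2, 1 without a filter and 5 by least squares. Hgsnat left 0 by edgeR or without a filter. With 1 column left out the ranges were 0 to 1 for the PERK branch in each direction, the ATF6 list and the IRE1 list (0 to 0), 0 to 2 for other degradation genes and 0 to 6 for the calnexin and translocon lists.

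Small ratios changed sign, none of them called. With the trend removed, with or without the block, Atf6 was 0.0098, Mbtps1 0.0182 and Erlec1 -0.0419, and by least squares 0.0436, 0.065 and -0.014. With 1 column left out the ranges were -0.106 to 0.0372 for Atf6, -0.0155 to 0.1302 for Eif2ak3, -0.0907 to 0.0038 for Mbtps2, -0.0816 to 0.0953 for Sel1l, -0.0282 to 0.0724 for Os9 and -0.0638 to 0.0905 for Wfs1. These fits assume that a genotype's single remaining column varies as much as the other genotype's. Pdia5 and Derl3 had the fewest reads of the members (120 in the lowest column) and the largest standard errors (0.20 and 0.19).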

Other observations

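The ER stress element also lies in promoters of genes outside the list. Of 37 genes with the element, 16 passed the read minimum and 10 of these were not members. None of the 10 was called by limma, and their median log2 ratio was 0.08. Both knockout columns lay above both wild-type columns for 4 of the 10 and below them for 3. Those patterns were seen in 25.5% and 25.6% of all genes tested. The chaperone genes among them, named after their values were seen, were the calcium-binding lectins Calr (0.28, limma adjusted p = 0.104) and Canx (0.23, adjusted p = 0.0964) and the isomerase Pdia6 (0.28, adjusted p = 0.0919). Calr stood at 76740 and 83334 normalised counts in wild type and 105630 and 89414 in the knockout, Canx at 43796 and 44179 against 53782 and 49752, and Pdia6 at 36257 and 42776 against 50018 and 45795. The 3 of the 10 with knockout columns below were Xlr3b (-1.3393, limma adjusted p = 0.113), Adcy3 (-1.0014, adjusted p = 0.179) and Pan2 (-0.1341, adjusted p = 0.461). Spats2l lay above (0.8455, limma adjusted p = 0.493), at 13 and 17 against 23 and 33 normalised counts. Columns overlapped for Ero1lb (0.1157), Alg12 (0.0513) and Hnrnpa3 (0.0252). Of 6 other genes with element II, none was called and the median was 0.04. Of 94 other genes with the unfolded protein response element, 0 were called higher and 2 lower, with a median of 0.06. Over all genes 1.67% were called higher and 1.24% lower.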
